A study of Homo sapiens with 12 samples.

Results

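The 6 libraries described here come from HEK-293T cells that held the YTHDF2 effector with either a guide RNA against SMARCA4 or a non-targeting guide RNA. They were chosen by their sample titles, without use of any measured value, and are 6 of the 12 libraries of the series. HEK-293T is an established cell line, derived from human embryonic kidney and expressing the large T antigen of SV40. The effector is called CIRTS-3 in the labels and belongs to CIRTS, programmable RNA-targeting proteins assembled from human protein domains that bind a guide RNA and carry an effector domain to the matching transcript. The YTHDF2-NT group held CIRTS-3 YTHDF2 with the non-targeting (NT) guide, and the YTHDF2-SMARCA4 group held CIRTS-3 YTHDF2 with the on-target guide, with 3 libraries in each, called NT 1 to 3 and SMARCA4 1 to 3 below. Both groups therefore contained the effector, and the guide was the labelled difference between them. The other 6 libraries, used for one comparison near the end, held a nuclease effector (CIRTS-12) with the same pair of guide classes. The series calls the libraries of a group biological replicates and names no culture, transfection or batch, so the p-values rest on the variation among these libraries alone, which may be technical in part.

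YTHDF2 is a cytoplasmic reader of N6-methyladenosine (m6A), a methyl mark on mRNA. It brings the CCR4-NOT deadenylase to marked transcripts, which shortens their poly(A) tails and speeds their decay, and tethering part of YTHDF2 to an unmarked transcript can lower that transcript. SMARCA4 (BRG1) is an ATPase of the BAF chromatin-remodelling complexes, which move nucleosomes at promoters and enhancers. The comparison therefore asks whether the level of SMARCA4 mRNA, and of other mRNAs, differed when the effector was given the SMARCA4 guide.

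No gene passed the test between the guides. Of 15564 genes tested, 0 (0%) had an adjusted p below 0.05 in edgeR's quasi-likelihood test with Benjamini-Hochberg adjustment, and the smallest adjusted p was 0.30. At an unadjusted p below 0.05 there were 475 genes (3.05% of those tested), of which 209 (1.34%) were higher and 266 (1.71%) lower with the SMARCA4 guide. The libraries of the groups did not overlap for 1434 genes (9.21%), 664 (4.27%) with all SMARCA4-guide libraries higher and 770 (4.95%) with all lower. If the guide made no difference and the libraries were exchangeable, a share of 0.1 of genes would separate in this way on average. Most fold changes were small: the median log2 fold change over all genes was -0.01, and the interquartile range ran from -0.14 to 0.11. DESeq2 called 3 genes, and limma voom with sample weights called 1415, of which 707 were higher. In that weighted fit NT 3 received a weight of 6.61 against 0.235 for NT 1 and 0.254 for NT 2, so NT 3 stood for its group. Leaving out NT 2 raised the number of genes at an unadjusted p below 0.05 to 3850, against 378 without NT 3 and 473 without NT 1, while 6, 0 and 1 genes were then called. Every fold change below is therefore given as a value and not as a call.

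**Figure D1:**
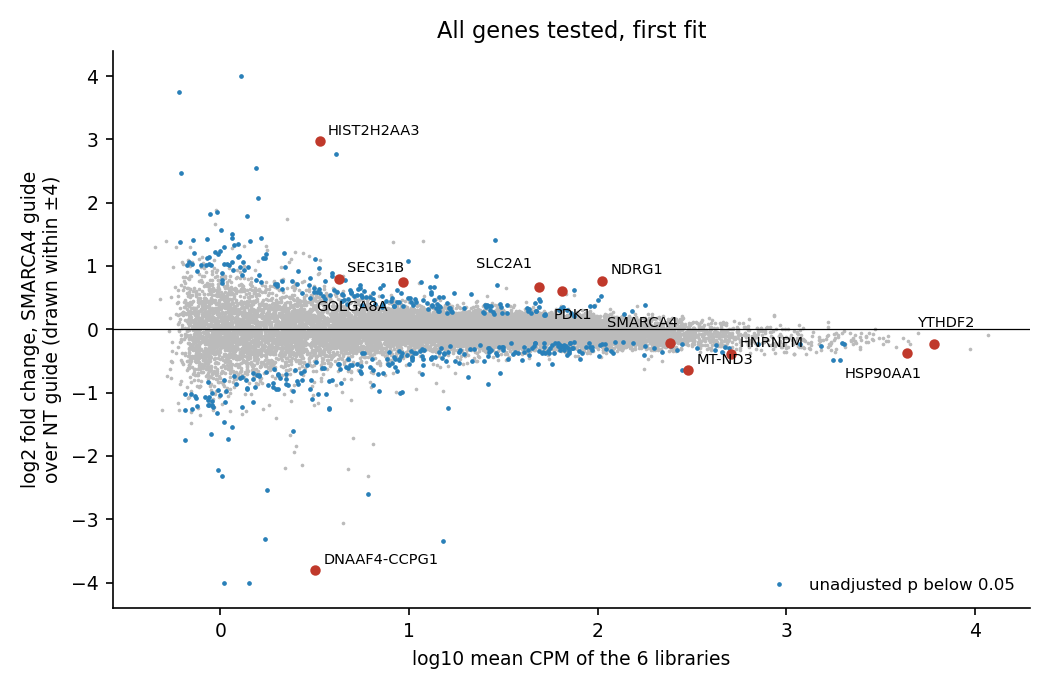
Log2 ratio of SMARCA4-guide to NT-guide libraries (vertical axis, drawn within ±4) against log10 of the mean CPM of the 6 libraries (horizontal axis), 1 point per gene tested. Blue points are the 475 genes with an unadjusted p below 0.05, red points are genes named in the text, and the scatter narrows from low to high levels.

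The spread came mainly from the NT libraries. Library totals ranged from 11744214 to 18047859 estimated counts, and the genes tested held at least 99.8% of them. The biological coefficient of variation, the spread between replicates beyond counting error, was 19.5% among the NT libraries and 6.16% among the SMARCA4-guide libraries. The NT spread remained at 14.3% without NT 1, 15.0% without NT 2 and 26.4% without NT 3, so NT 1 and NT 2 lay farthest apart. The SD of log2 levels was larger in the NT group for 76.6% of genes, with medians of 0.24 and 0.11.

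Part of that distance followed transcript length. Across genes, the deviation of a library from the mean of the 6 had a Spearman correlation with transcript length of -0.54 in NT 1, 0.52 in NT 2 and -0.28 in NT 3, against 0.34, 0.18 and 0.00 in SMARCA4 1 to 3; these are descriptions across genes, which share their library and are not replicates. In the bin of shortest genes of 5 bins of equal size, with a median length of 924 bases, the median log2 deviation was 0.33 in NT 1 and -0.18 in NT 2. In the bin of longest genes, with a median of 6087 bases, it was -0.26 in NT 1 and 0.21 in NT 2. GC content moved with the libraries as well, with correlations of 0.41 in NT 1 and -0.42 in NT 2. The median log2 fold change between the guides accordingly ran from -0.14 in the shortest bin to 0.06 in the longest. A second fit of the same genes therefore removed, from each library, its smooth trend with transcript length.

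**Figure D2:**
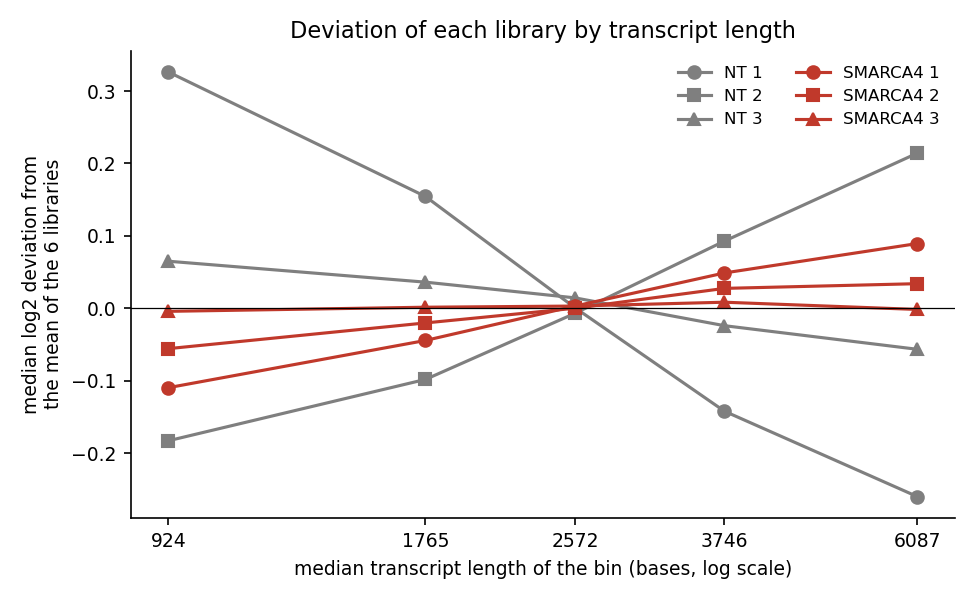
Median log2 deviation of each library from the mean of the 6 libraries (vertical axis) in 5 bins of genes of equal size by transcript length (horizontal axis, median length of the bin in bases, log scale). Grey lines are NT 1 to 3 and red lines SMARCA4 1 to 3, and NT 1 and NT 2 slope in opposite directions, from 0.33 to -0.26 and from -0.18 to 0.21.

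With the length trend removed, 0 genes (0%) were called and the smallest adjusted p was 0.17. There were 831 genes (5.34%) at an unadjusted p below 0.05, 360 (2.31%) higher and 471 (3.03%) lower. The guides' libraries did not overlap for 1803 genes (11.6%), 872 (5.6%) higher and 931 (5.98%) lower, and 49.6% of genes had a fold change above 0. The coefficient of variation of the NT libraries was then 14.4%, still above the 5.5% of the SMARCA4-guide libraries.

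SMARCA4 itself (ENSG00000127616, chromosome 19, 10960825 to 11079426 in GENCODE 29 on GRCh38) was lower in mean with its guide and did not pass the test. Its level was 299, 232 and 247 CPM (counts scaled to a common library total by edgeR's TMM factors) in NT 1 to 3, and 241, 208 and 218 in SMARCA4 1 to 3. SMARCA4 2 and SMARCA4 3 were below every NT library, SMARCA4 1 was above NT 2, so the groups overlapped through that library, and NT 1 was the highest. The means were 259 ± 35.3 and 222 ± 16.7 CPM (SD, n = 3 each). The log2 fold change was -0.22 (SE 0.12), a difference of -14.4% with a 95% interval of -28.8% to 2.96%. edgeR gave an adjusted p of 0.949, and an exact two-sided permutation test of the CPM gave p = 0.2, where 0.1 is the smallest that 3 against 3 allows. By its p, SMARCA4 ranked 1041 among the genes tested.

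Removing the length trend moved SMARCA4 a little further down. The fold change became -0.29 (SE 0.14) on the log2 scale, a difference of -18.3% with a 95% interval of -33.9% to 0.94%, and an adjusted p of 0.842 (edgeR). The exact permutation test of the CPM with that trend removed gave p = 0.3, against 0.2 in the first fit. The 95% interval ended just below 0 in 2 further edgeR fits: it was -30.2% to -0.65% with the length and GC trends removed (adjusted p 0.711) and -25.7% to -1.38% in the fit of all 12 libraries (adjusted p 0.703). The value depended on the NT libraries: without NT 1 it was -0.10, and without NT 2 with the length trend removed it was -0.42 with an adjusted p of 0.102. In the deposited TPM, which divide by effective length within each library, SMARCA4 was at 132, 130 and 135 TPM in NT 1 to 3 and at 124, 108 and 123 TPM in SMARCA4 1 to 3. On that scale the groups did not overlap, with a difference of -10.7% between the means and an exact permutation p of 0.1, the smallest possible. A large part of that sum was SMARCA4-211, a processed transcript model of 569 bases holding 9.7% of the gene's counts. It was at 68.8, 63.1 and 65.0 TPM in NT 1 to 3 and 56.2, 53.3 and 60.6 TPM in SMARCA4 1 to 3. The longer models SMARCA4-201, SMARCA4-204 and SMARCA4-219 each overlapped between the guides in TPM. In bulk RNA, less SMARCA4 mRNA per cell and fewer cells with it cannot be told apart, and no label gives the share of cells that took up the effector.

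**Figure D3:**
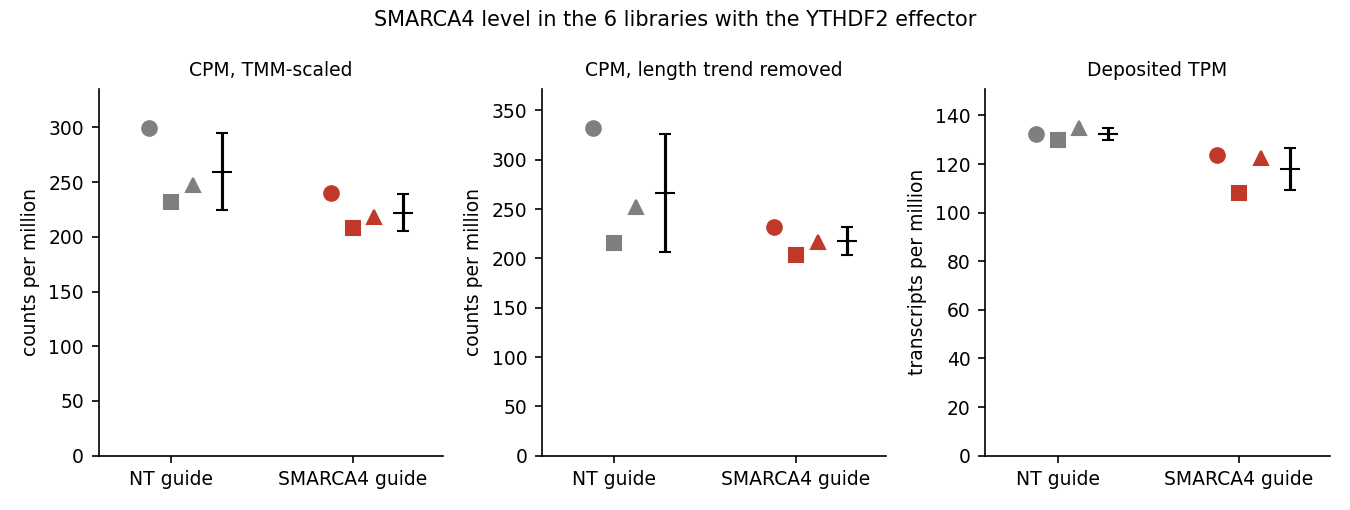
SMARCA4 in each of the 6 libraries on 3 scales, in CPM scaled by TMM (left), in CPM with the length trend removed (middle) and in deposited TPM (right), with all axes from 0. Points are libraries (circle, square and triangle for replicates 1, 2 and 3) and black marks are the mean ± SD of 3, and the groups overlap in the left and middle panels but not on the right, where the means are 132 and 118 TPM.

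SMARCA4 reads were spread over 15 transcript models, of which 10 were tested and 7 had a lower mean with the SMARCA4 guide; 0 were called. The model with the most counts, SMARCA4-219, annotated as a retained intron and holding 33% of the gene's counts, was at 74.7, 78.5 and 85.4 CPM with the NT guide and 93.9, 74.2 and 74.6 CPM with the SMARCA4 guide. The coding model SMARCA4-201 was at 97.3, 53.007 and 67.7 CPM against 43.3, 32.1 and 58.8 CPM. Its SMARCA4-guide libraries were below NT 1 and NT 3, and SMARCA4 3 was above NT 2. That model's log2 fold change was -0.70 (SE 0.31) with an edgeR adjusted p of 0.9999. The other long coding model, SMARCA4-204, was at 50.5, 58.8 and 43.5 CPM against 63.2, 51.1 and 49.4 CPM, with a fold change of 0.10. Reads shared by these models are divided by kallisto's estimate, so the split between them is less certain than the gene's sum.

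The effector was present in both groups at similar levels. YTHDF2 counts, which include the effector's YTHDF2 sequence, came to 10584, 12101 and 16044 TPM with the NT guide and 10640, 13247 and 12600 TPM with the SMARCA4 guide. In the 6 nuclease libraries YTHDF2 lay between 86.3 and 126 TPM, so the level in every YTHDF2 library matched the labelled effector. In CPM, YTHDF2 was at 6328, 5371 and 7929 against 4768, 6084 and 5912, a log2 fold change of -0.23 (SE 0.16) with overlapping groups. A single transcript model of 657 bases, YTHDF2-205, held 95% of these counts, so the endogenous mRNA cannot be read from the gene's sum. The coding model YTHDF2-208 was at 277, 202 and 222 CPM against 190, 221 and 230 CPM.

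Firefly luciferase, 1 of 2 reporters among the counted sequences, was at 4419, 3129 and 5031 CPM with the NT guide and 2962, 3720 and 3672 CPM with the SMARCA4 guide, a log2 fold change of -0.28. Renilla luciferase was at 294, 403 and 449 CPM against 350, 476 and 446 CPM, a fold change of 0.15. SNRPA, the hairpin-binding protein A of the U1 snRNP, was at 4272, 4777 and 6249 CPM against 4334, 5294 and 4985 CPM. NT 3 held the most YTHDF2, firefly and SNRPA counts of the 6 libraries, and the groups overlapped for all of them. SMG6, an endonuclease of nonsense-mediated decay, had a fold change of -0.01, and HBEGF, a growth factor precursor, one of 0.00. YTHDF2 and SNRPA turned to 0.06 and 0.22 without NT 3 with the length trend removed.

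The partners of SMARCA4 in the BAF complexes were balanced between directions. Of 26 subunits measured, 13 were higher and 13 lower in mean, with a median log2 fold change of 0.00 and 0 called. ARID1A, the DNA-binding subunit of canonical BAF, was at 71.3, 73.8 and 66.8 CPM with the NT guide and 66.3, 64.3 and 61.9 CPM with the SMARCA4 guide, the SMARCA4-guide libraries all below (log2 fold change -0.14, unadjusted edgeR p 0.155). SMARCB1, the core subunit lost in rhabdoid tumours, was at 256, 199 and 229 CPM against 204, 203 and 199 CPM. With the length trend removed the BAF median was -0.03, with 7 subunits higher and 19 lower. The genes beside SMARCA4 on chromosome 19 had a median of 0.01 over 15 measured. DNM2, the dynamin of endocytic vesicle scission, had all SMARCA4-guide libraries above, at 109, 130 and 132 CPM against 140, 136 and 141 CPM. QTRT1, a tRNA-guanine transglycosylase subunit, and CDC37, a cochaperone of HSP90, had fold changes of -0.30 and -0.21 and overlapped.

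The m6A pathway and the decay machinery that YTHDF2 engages had medians near that of all genes. Of 20 readers, writers and erasers, 7 were higher and 13 lower, with a median of -0.02. All SMARCA4-guide libraries were below all NT libraries for 3 of them and above for 0, against 4.95% and 4.27% of all genes. With the length trend removed the median was -0.04, with 4 below and 0 above, against 5.98% and 5.6% of all genes. HNRNPA2B1, an hnRNP described as an m6A reader, was at 2378, 2025 and 2154 CPM with the NT guide and 1891, 1833 and 1865 CPM with the SMARCA4 guide, with no overlap (log2 fold change -0.23, unadjusted edgeR p 0.039, or 0.0019 with the length trend removed). YTHDC1, the nuclear m6A reader, was at 113, 114 and 108 CPM against 97.8, 105 and 101 CPM, also without overlap. ZC3H13, which holds the writer complex in the nucleus, was at 201, 146 and 171 CPM against 143, 143 and 144 CPM, and overlapped once the length trend was removed.

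Among 39 deadenylation, decapping, exosome and RNase P factors, 23 were higher and 16 lower, with a median of 0.02. With the length trend removed the median was -0.01. In that fit 5 were lower and 0 higher at an unadjusted edgeR p below 0.05, against 3.03% and 2.31% of all genes. CNOT2, a scaffold subunit of CCR4-NOT, was at 103, 85.2 and 97.4 CPM against 78.8, 84.5 and 84.5 CPM, a fold change of -0.21. RPP25, a subunit of RNase P and RNase MRP, was at 55.7, 38.5 and 49.1 CPM against 37.7, 37.8 and 38.3 CPM. The 6 mRNAs listed as reported YTHDF2 targets had a median of -0.01. They held 0 non-overlapping members in the first fit and 1 with the length trend removed, against 9.21% and 11.6% of all genes. That member was SON, a splicing scaffold, with a fold change of -0.05, or -0.12 with the length trend removed. CREBBP, a histone acetyltransferase, had a fold change of 0.12. The 14 factors of nonsense-mediated decay had a median of -0.05 and its 20 target transcripts one of -0.05, or 0.04 with the length trend removed. SNHG1, a snoRNA host transcript, was at 122, 119 and 144 CPM against 141, 148 and 152 CPM.

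Genes of the response to low oxygen were higher in mean with the SMARCA4 guide and stood furthest above the median of all genes among the lists described. In this response the transcription factor HIF is held down by oxygen-dependent prolyl hydroxylases (EGLN1 to EGLN3), and its targets carry glucose into cells, shift pyruvate away from mitochondria, form new vessels and remove mitochondria. Of 26 symbols listed as HIF and hypoxia targets 23 were measured; CA9 and ANGPTL4 did not pass the filter on low counts, and ERO1L is an older symbol of ERO1A, which the list also holds. Of the 23, 22 were higher in mean, where 48.1% of all genes were. The median log2 fold change was 0.30, 9 members had an unadjusted edgeR p below 0.05 and were higher (1.34% of all genes), and 10 had all SMARCA4-guide libraries above all NT libraries (4.27% of all genes). With the length trend removed the median was also 0.30, and 12 members did not overlap, where 5.6% of all genes were higher without overlap. No member was called.

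The size of these differences came mostly from SMARCA4 1. That library was the highest of the 6 for 22 of the 23 members, and for 12.9% of all genes. The members' mean log2 deviation from the 6-library mean was 0.43 in SMARCA4 1, -0.01 in SMARCA4 2 and 0.04 in SMARCA4 3, and between -0.17 and -0.13 in NT 1 to 3. SMARCA4 2 and SMARCA4 3 were both above all NT libraries for 10 members (43.5%), and for 7.1% of all genes. Without SMARCA4 1 the median was 0.16, with 21 members higher. The nuclease comparison, which shares no library with this one, had a median of 0.31 over the same members, 22 of them higher.

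Promoter windows are shown for 4 genes of the hypoxia target and glycolysis lists (GRCh38.p14, 250 bases before to 50 after the start, printed on the gene's strand). Each had all SMARCA4-guide libraries above all NT libraries in both fits and a single start in the RefSeq table. Some listed genes were left out whatever their values, so the 4 genes are examples and not all that may meet these conditions. They are SLC2A1 at chr1:42958819-42959118 (minus strand), BHLHE40 at chr3:4979187-4979486 (plus strand), BNIP3 at chr10:131981874-131982173 (minus strand) and P4HA1 at chr10:73096817-73097116 (minus strand). Capitals mark the core of the HIF-binding element, searched as ACGTG and GCGTG on both strands, where ACGTG overlaps its own reverse complement in CACGTG.
SLC2A1: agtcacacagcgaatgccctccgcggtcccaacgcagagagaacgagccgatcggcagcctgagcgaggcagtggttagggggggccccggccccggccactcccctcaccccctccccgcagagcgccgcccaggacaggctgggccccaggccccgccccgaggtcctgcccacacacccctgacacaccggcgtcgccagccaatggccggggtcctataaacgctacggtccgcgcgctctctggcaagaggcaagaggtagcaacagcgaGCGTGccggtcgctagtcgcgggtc
BHLHE40: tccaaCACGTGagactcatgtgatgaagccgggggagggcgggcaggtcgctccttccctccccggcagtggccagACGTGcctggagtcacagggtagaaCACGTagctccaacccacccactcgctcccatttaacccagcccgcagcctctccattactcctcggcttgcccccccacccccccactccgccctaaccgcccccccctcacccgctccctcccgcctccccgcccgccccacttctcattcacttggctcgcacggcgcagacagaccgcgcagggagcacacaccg
BNIP3: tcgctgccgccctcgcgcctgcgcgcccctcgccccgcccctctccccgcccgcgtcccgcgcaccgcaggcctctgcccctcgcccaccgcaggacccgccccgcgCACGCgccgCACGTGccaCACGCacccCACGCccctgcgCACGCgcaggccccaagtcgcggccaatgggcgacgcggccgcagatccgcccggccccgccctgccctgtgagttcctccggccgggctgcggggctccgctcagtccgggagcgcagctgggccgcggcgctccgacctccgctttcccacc
P4HA1: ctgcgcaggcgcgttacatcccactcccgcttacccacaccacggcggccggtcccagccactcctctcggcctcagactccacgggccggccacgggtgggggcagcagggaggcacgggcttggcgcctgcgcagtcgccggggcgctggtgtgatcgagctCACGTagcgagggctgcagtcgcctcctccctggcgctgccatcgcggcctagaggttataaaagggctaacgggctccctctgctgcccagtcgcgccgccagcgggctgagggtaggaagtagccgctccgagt
The core occurred 1, 4, 6 and 1 times in these windows, counted on both strands. It is common: 48.4% of all 35116 promoter windows of this length held it. Of the 19 HIF and hypoxia targets with a window, 17 had it in at least 1 window, against 52.4% of 27305 genes. These members were listed as HIF targets, and the 27305 genes include some not tested here. The share is therefore no measure of HIF activity in these libraries. A match describes letters in the window and is not a measured binding site.

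Glucose entry and the block of pyruvate oxidation held the clearest members. SLC2A1, which encodes the GLUT1 glucose transporter (chromosome 1, 42925375 to 42959176), was at 39.7, 36.3 and 36.5 CPM in NT 1 to 3 and at 74.9, 54.4 and 50.1 CPM in SMARCA4 1 to 3. All SMARCA4-guide libraries were above all NT libraries, which lay close together, and SMARCA4 1 was the highest. The means were 37.5 ± 1.96 and 59.8 ± 13.3 CPM (SD, n = 3 each). The log2 fold change was 0.67 (SE 0.15), with an unadjusted edgeR p of 0.0022, and lay between 0.47 and 0.79 over the 22 alternatives tried, in 2 of which SLC2A1 was called. PDK1, the kinase that inactivates pyruvate dehydrogenase, was at 42.2, 60.9 and 51.3 CPM against 98.2, 66.3 and 69.2 CPM, a fold change of 0.60 (SE 0.18). SLC2A3, the GLUT3 transporter, was at 8.08, 10.994 and 10.9 CPM against 26.7, 13.0 and 14.2 CPM, a fold change of 0.84. For both, SMARCA4 2 and SMARCA4 3 were only slightly above the highest NT library.

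Other hypoxia targets showed the same order of libraries. NDRG1, a stress-induced differentiation gene, was at 65.6, 74.3 and 94.1 CPM with the NT guide and 194, 98.1 and 107 CPM with the SMARCA4 guide. BHLHE40, a transcriptional repressor, was at 47.7, 67.8 and 61.8 CPM against 128, 70.7 and 73.8 CPM. BNIP3, a mitophagy receptor, was at 92.2, 80.1 and 79.2 CPM against 153, 97.6 and 97.6 CPM. In each of these, SMARCA4 1 was well above the 5 other libraries and the remaining SMARCA4-guide libraries were just above the NT range. P4HA1, a collagen prolyl hydroxylase, was at 74.6, 83.0 and 81.5 CPM against 130, 83.6 and 96.3 CPM. PFKFB3, which makes the activator of phosphofructokinase, was at 36.5, 46.1 and 43.2 CPM against 69.9, 49.3 and 52.3 CPM. KDM3A, a histone H3 lysine 9 demethylase, differed in that SMARCA4 1 was less far above the others, at 47.4, 68.4 and 57.6 CPM against 81.7, 70.7 and 69.1 CPM.

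**Figure D4:**
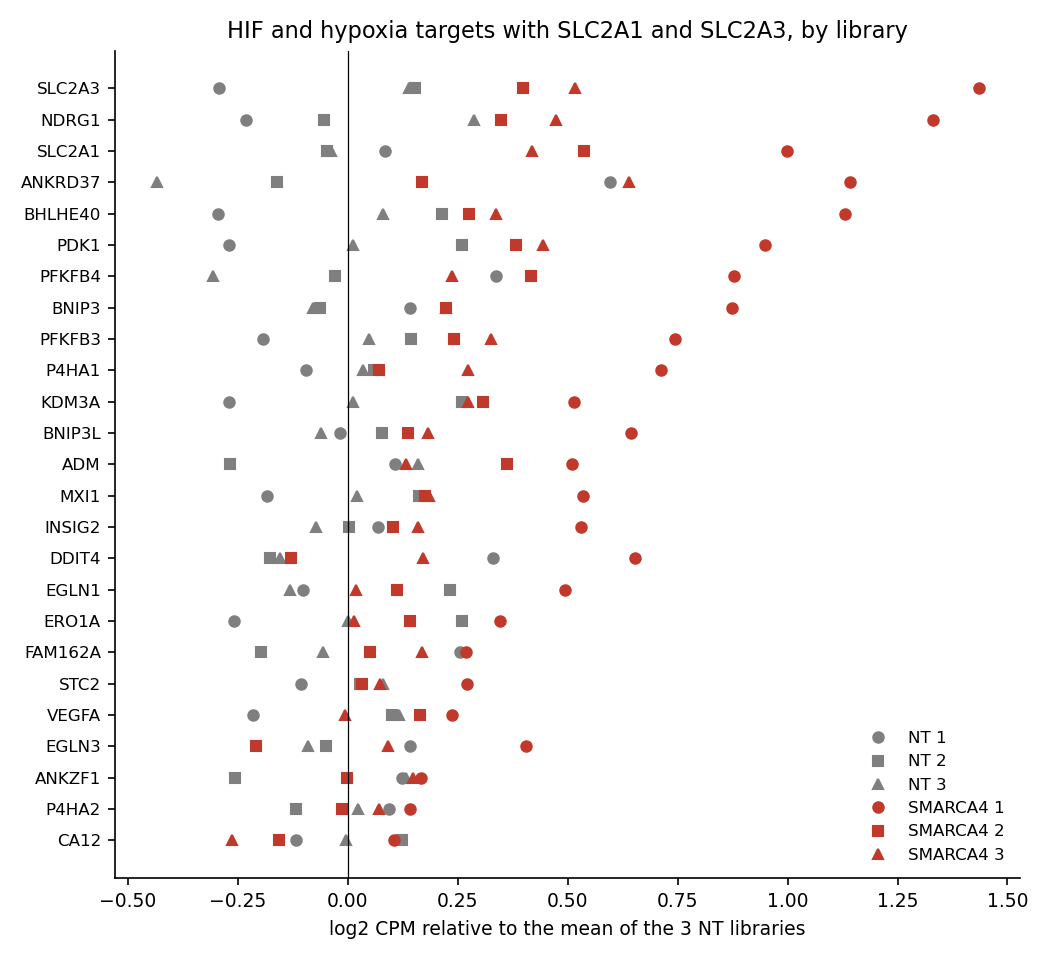
Log2 CPM of 23 HIF and hypoxia targets, with SLC2A1 and SLC2A3, relative to the mean of the NT libraries of that gene (horizontal axis), 1 row per gene ordered by fold change. Grey symbols are NT 1 to 3 and red symbols SMARCA4 1 to 3, and the red circles of SMARCA4 1 are the rightmost symbol for 22 of the 23 targets.

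Several well-known hypoxia targets overlapped between the guides. VEGFA, the vessel growth factor, was at 29.5, 36.8 and 37.2 CPM against 40.4, 38.5 and 34.1 CPM, a fold change of 0.13. EGLN1, the main HIF prolyl hydroxylase, was at 92.9, 117 and 91.0 CPM against 140, 108 and 101 CPM, and EGLN3 had a fold change of 0.11. DDIT4, an inhibitor of mTORC1, was at 210, 148 and 150 CPM against 263, 153 and 188 CPM. CA12, a carbonic anhydrase at about 4 to 5 CPM, was the member with a lower mean (log2 fold change -0.11).

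The enzymes of glycolysis themselves were divided between directions in mean, and the balance depended on single libraries. The list of 19 glycolytic enzymes and glucose transporters had a median of 0.01, with 11 higher and 8 lower. SLC2A1 and SLC2A3 were its 2 non-overlapping members, both higher, where 4.27% of all genes were higher without overlap. HK2, a hexokinase, was at 39.7, 70.2 and 56.1 CPM against 115, 61.6 and 66.6 CPM. PGK1, phosphoglycerate kinase, was at 869, 774 and 739 CPM against 1060.5, 836 and 872 CPM, and GAPDH was at 3221, 2323 and 2635 CPM against 2708, 2422.5 and 2483 CPM. SMARCA4 1 was the highest library for HK2 and PGK1, while NT 1 was the highest for GAPDH. Over the list SMARCA4 1 was the highest for 10 members and NT 1 for 8, against 12.9% and 33.8% of all genes. With each library left out in the first fit the median lay between -0.04 and 0.09, with 5 to 16 members higher. The nuclease comparison had a median of 0.28 over the same members, 19 of them higher.

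Immediate early genes, which are induced within minutes of growth factor or stress signals, were higher in mean for 13 of 18 members, with a median of 0.16. ARC, a cytoskeleton-associated activity-regulated gene, was at 2.14, 2.05 and 2.48 CPM against 6.17, 2.88 and 4.19 CPM. FOS, a subunit of AP-1, was at 3.01, 4.51 and 5.03 CPM against 8.89, 6.46 and 5.28 CPM. Both had no overlap, with unadjusted edgeR p of 0.012 and 0.027. KLF6, a zinc-finger factor, went the other way at 75.2, 68.8 and 71.3 CPM against 62.3, 54.7 and 64.3 CPM. SMARCA4 1 was the highest library for 10 of the 18 members, and the median without it was 0.09.

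Heat shock and amino acid stress genes were mostly lower in mean with the SMARCA4 guide. Of 15 heat shock genes, 11 were lower, with a median of -0.17 or -0.14 with the length trend removed, and 5 had all SMARCA4-guide libraries below all NT libraries (4.95% of all genes did), or 7 with the length trend removed (5.98% of all genes). HSP90AA1, the inducible cytosolic HSP90, was at 5923, 4122 and 4680 CPM against 3610, 3785 and 3908 CPM. The means were 4908 ± 922 and 3768 ± 150 CPM (SD, n = 3 each), a log2 fold change of -0.38 (SE 0.14) with an unadjusted edgeR p of 0.023. HSP90AB1, the constitutive HSP90, was at 2259.5, 2063.5 and 2056 CPM against 1866, 1840.1 and 1814 CPM, and HSPD1, the mitochondrial chaperonin HSP60, was at 1714, 1653 and 1586 CPM against 1470.5, 1468 and 1456 CPM. In these genes the SMARCA4-guide libraries lay close together below every NT library, while the NT group had the larger SD for 76.6% of all genes. HSPA1B took nearly all reads of the near-identical pair HSPA1A and HSPA1B, whose sum was 1203, 1185 and 1494 CPM against 1120.5, 1170 and 1152 CPM. HSPA8, the constitutive HSP70, had a fold change of -0.05 and overlapped. The median of the list was between -0.19 and -0.07 when each library was left out in either fit.

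Of 18 genes of the integrated stress response, through which ATF4 raises amino acid supply, 15 were lower, with a median of -0.14 or -0.10 with the length trend removed. CHAC1, which degrades glutathione, was at 11.2, 9.19 and 10.5 CPM against 7.90, 7.49 and 6.97 CPM, with an unadjusted edgeR p of 0.011. ASNS, asparagine synthetase, was at 341, 322 and 359 CPM against 297, 304 and 308 CPM. Neither gene overlapped between the guides. ATF4 itself was at 1205, 835 and 1083 CPM against 832, 890 and 898 CPM and overlapped, but not once the length trend was removed. ATF3, a stress-induced repressor that is also an immediate early gene, was higher in mean at 140, 139 and 186 CPM against 242, 187 and 179 CPM.

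Abundant hnRNP proteins were mostly lower in mean. Their SMARCA4-guide libraries lay close together, but the SD was larger in the NT group for 76.6% of all genes. Of 21 hnRNP proteins, SR proteins and CLK kinases, 14 were lower and 7 higher, with a median of -0.075. All SMARCA4-guide libraries were below all NT libraries for 8 of them, all hnRNPs, and above for 3, all CLK kinases, against 4.95% and 4.27% of all genes. HNRNPM, a splicing regulator, was at 677, 522 and 536 CPM against 438, 446 and 444 CPM, a log2 fold change of -0.39 with an unadjusted edgeR p of 0.0090. HNRNPD (AUF1), which binds AU-rich elements, was at 820, 686 and 780 CPM against 655, 643 and 646 CPM. CLK1, a kinase that phosphorylates SR proteins, was at 46.0, 47.8 and 52.5 CPM against 57.3, 57.0 and 56.4 CPM. With the length trend removed, 6 were below and 2 above, against 5.98% and 5.6% of all genes. NCL, nucleolin, and EWSR1, an RNA-binding protein, were named by the smallest p in that fit: NCL was at 1755, 1564 and 1651 CPM against 1417, 1364 and 1361 CPM, and EWSR1 at 569, 472 and 514 CPM against 411, 435 and 434 CPM.

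**Figure D5:**
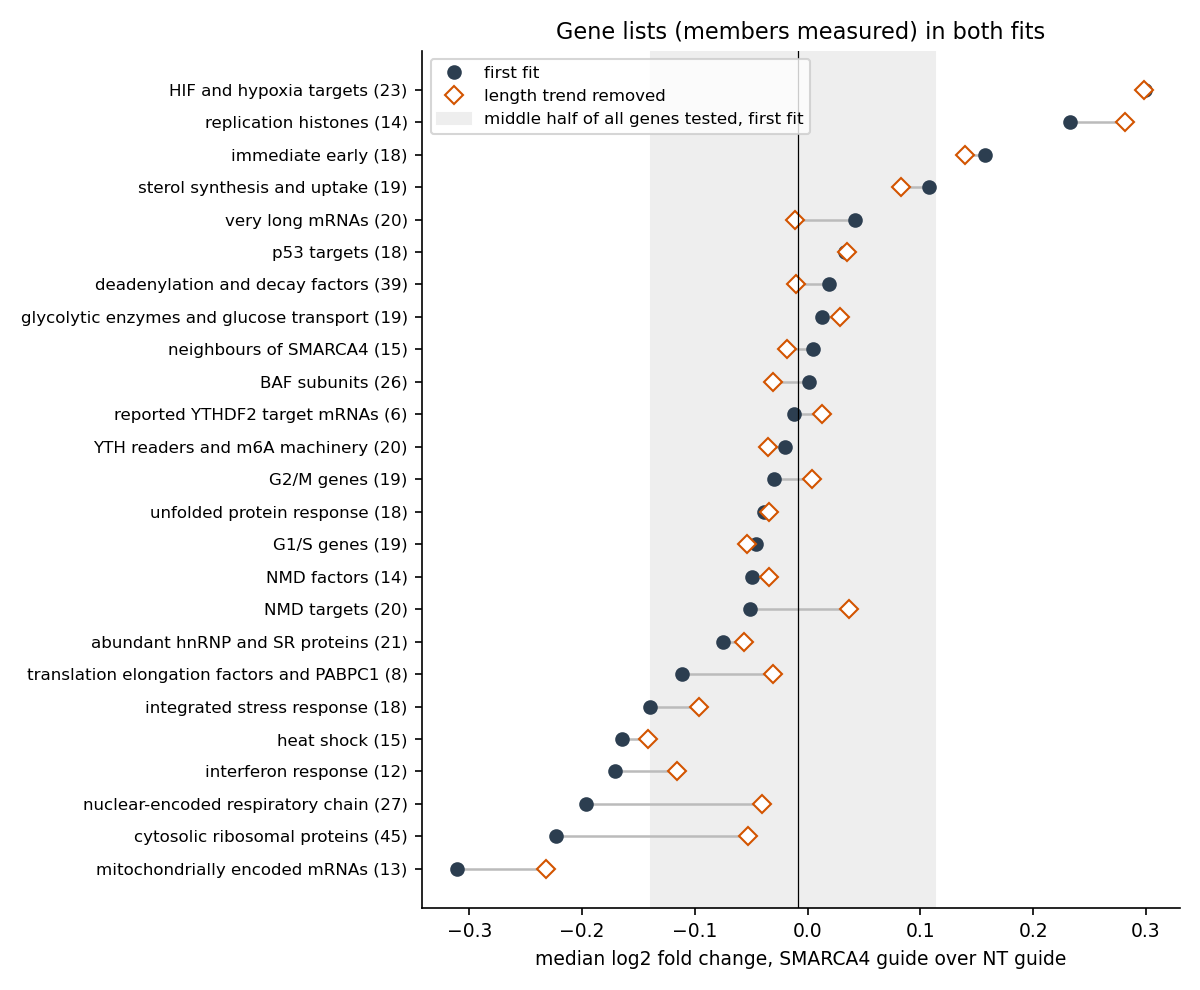
Median log2 ratio of SMARCA4-guide to NT-guide libraries (horizontal axis) for the gene lists (vertical axis, members measured in parentheses), in the first fit (filled circles) and with the length trend removed (open diamonds). The grey band is the interquartile range of all genes tested in the first fit, -0.14 to 0.11; HIF and hypoxia targets lie at 0.30 in both fits, while ribosomal proteins move from -0.22 to -0.05.

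Some lists moved with transcript length. All 45 cytosolic ribosomal protein genes, whose mRNAs are short (median 723 bases), were lower in mean with the SMARCA4 guide, with a median of -0.22. Yet 0 of them separated the guides' libraries, where 4.95% of all genes were lower without overlap. NT 1 was the highest library for 45 of 45, with a mean log2 deviation of 0.46. Without NT 1 the median was -0.01, with 17 higher, and with the length trend removed it was -0.05. In that fit 11 of the genes had all SMARCA4-guide libraries below all NT libraries and 3 had them above, against 5.98% and 5.6% of all genes. RPL7, a large-subunit protein, was at 2368, 1547 and 1827 CPM against 1541, 1485.5 and 1570 CPM. Nuclear-encoded subunits of the respiratory chain behaved alike, 25 of 27 lower with a median of -0.20, or -0.04 with the length trend removed. NDUFS1, a subunit of complex I with a longer mRNA, was the non-overlapping exception at 135, 157 and 143 CPM against 168, 164 and 159 CPM.

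The mRNAs encoded in mitochondria had a median of -0.31, with 11 of 13 lower. MT-ND3, a subunit of complex I, was at 460, 329 and 318 CPM against 187, 248 and 274 CPM, without overlap, and MT-CO2, a subunit of cytochrome c oxidase, was at 2508, 1962 and 1711.5 CPM against 1214, 1489 and 1729 CPM. SMARCA4 1 was the lowest library for 11 of the 13 and NT 2 the highest for 10. The median was -0.18 without NT 2 and -0.23 with the length trend removed. With both changes together it was 0.08, with 8 higher.

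Histone genes of the replication-dependent clusters, whose mRNAs mostly lack poly(A) tails, had a median of 0.23 over 14 measured, with 9 higher. HIST1H2AC, an H2A gene, was at 10.2, 8.78 and 12.3 CPM against 12.2, 18.5 and 16.4 CPM, and HIST2H4A, an H4 gene, at 17.7, 21.7 and 27.4 CPM against 44.6, 38.3 and 26.5 CPM. HIST2H2AA3 and HIST2H2AA4 are near-identical copies, whose reads kallisto has to divide. The former was at 2.30, 0 and 0 CPM against 6.501, 5.56 and 5.83 CPM, and the latter at 8.15, 7.38 and 11.8 CPM against 6.34, 3.50 and 4.19 CPM. Their sum was 9.89 ± 2.27 CPM with the NT guide and 10.6 ± 1.96 CPM with the SMARCA4 guide (SD, n = 3 each).

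Sterol genes were higher in mean for 14 of 19 members, with a median of 0.11. SC5D, a late enzyme of cholesterol synthesis, was at 53.5, 64.8 and 66.0 CPM against 78.3, 73.4 and 75.4 CPM, and DHCR7, which makes the last step to cholesterol, was at 79.3, 74.2 and 77.2 CPM against 88.5, 90.6 and 83.6 CPM. Neither overlapped between the guides. The p53 targets had a median of 0.03 over 18, with BBC3 (PUMA), an apoptosis inducer, at 22.6, 18.6 and 20.6 CPM against 17.0, 15.2 and 16.1 CPM. FAS, a death receptor, was at 11.7, 13.6 and 13.3 CPM against 14.6, 16.1 and 18.7 CPM. Cell cycle genes were near the median of all genes, at -0.05 over 19 G1/S genes and -0.03 over 19 G2/M genes. The unfolded protein response had a median of -0.04 over 18. Of 20 interferon response genes 12 were measured, with a median of -0.17 and 1 non-overlapping member, where 4.95% of all genes were lower without overlap. That member, IFI6, was at 7.997, 8.45 and 8.49 CPM against 6.01, 7.90 and 6.32 CPM, and overlapped once the length trend was removed.

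Beyond the lists, the genes with the smallest p among those of at least 5 CPM and without overlap included several that share sequence with another gene. GOLGA8A, of a golgin family with many copies on chromosome 15, was at 6.49, 8.12 and 6.30 CPM with the NT guide and 12.2, 12.6 and 10.4 CPM with the SMARCA4 guide, a log2 fold change of 0.75 (SE 0.16). DNAAF4-CCPG1, a readthrough transcript, was at 8.63, 3.69 and 5.45 CPM against 0.823, 0.549 and 0 CPM. Its sum with CCPG1, an ER-phagy receptor gene, was 40.5 ± 3.65 CPM and 41.9 ± 1.69 CPM (SD, n = 3 each). UBE2F-SCLY, another readthrough transcript, was at 13.3, 10.3 and 7.36 CPM against 3.70, 0 and 1.58 CPM, while SCLY, selenocysteine lyase, was at 36.9, 34.5 and 40.6 CPM against 44.1, 49.4 and 48.4 CPM. The sum of that pair was 47.7 ± 2.71 and 49.0 ± 1.10 CPM (SD, n = 3 each). For neither pair did the sums differ between the guides by more than the SD of the NT libraries. EIF3CL, a copy of the translation initiation factor gene EIF3C, was at 62.9, 47.3 and 62.5 CPM against 34.4, 45.5 and 38.5 CPM, beside 588 to 644 CPM of EIF3C in the NT libraries.

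Among those without a known copy, SEC31B, a COPII coat protein, was at 3.33, 3.36 and 2.62 CPM against 5.43, 5.15 and 5.61 CPM, a fold change of 0.80. MRI1, an isomerase of methionine salvage, was at 42.6, 44.8 and 42.1 CPM against 52.3, 55.8 and 56.5 CPM, and PARP6, a mono-ADP-ribosyltransferase, at 39.98, 36.2 and 39.9 CPM against 49.9, 48.3 and 46.3 CPM. In both the libraries of each guide lay close together, with log2 fold changes of 0.35 and 0.32. EMILIN2, an extracellular matrix glycoprotein, was at 6.49, 7.88 and 7.50 CPM against 11.9, 10.3 and 10.3 CPM. LGALS8, galectin-8, was lower at 10.8, 6.3997 and 7.999 CPM against 3.46, 5.42 and 4.68 CPM. UTP3, a ribosome biogenesis factor, was at 66.1, 54.6 and 67.0 CPM against 47.9, 51.0 and 46.5 CPM.

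The remaining genes of this selection were mostly of low level. AC005832.4, annotated as protein-coding, was at 9.18, 3.69 and 6.09 CPM against 15.1, 14.1 and 10.9 CPM and had the smallest p of the higher genes with the length trend removed (unadjusted edgeR p 0.00023). CSRNP1, a transcription factor, had a log2 fold change of 0.57, PRTFDC1 one of 0.35, the pseudogene PI4KAP1 one of 0.35 and LINC01881 one of 0.90. On the lower side AC007326.4 was at -0.99, AC092171.2 at -0.56, AC005034.3 at -0.45, GLIDR at -0.54 and AC145207.2 at -1.25.

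The 3 genes that DESeq2 called were DNAAF4-CCPG1, PKD1P1 and AC010422.3, named after their values were seen. PKD1P1, a pseudogene of PKD1, was at 0 CPM in every NT library and at 1.98, 2.95 and 2.83 CPM with the SMARCA4 guide, and AC010422.3 was at 4.75, 1.48 and 2.34 CPM with the NT guide and 0 CPM in every SMARCA4-guide library. PKD1, the parent gene, was at 11.5, 11.98 and 10.5 CPM against 12.5, 9.20 and 10.2 CPM. At the level of transcript models 0 of 41065 were called (0%), with 1022 (2.49%) at an unadjusted edgeR p below 0.05, and the smallest p belonged to models counted with 1 guide and at 0 with the other. ARFGAP1-205 was at 5.54, 8.85 and 7.85 CPM against 0 in every SMARCA4-guide library, and CAMKK1-202 at 0 in every NT library against 10.008, 12.03 and 6.56 CPM.

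Of the 6 genes of at least 10 CPM with the largest spread within the NT group, 3 were processed pseudogenes (PSMC1P1, BZW1P2 and HMGN2P5). The others were the readthrough transcript BLOC1S5-TXNDC5, the antisense gene AC099329.1 and AL136295.1, annotated as protein-coding. PSMC1P1, a processed pseudogene of a proteasome subunit, was at 0, 28.963 and 28.952 CPM in NT 1 to 3 and at 29.6, 20.5 and 28.967 CPM in SMARCA4 1 to 3. BLOC1S5-TXNDC5, a readthrough transcript, was at 0.317, 62.2 and 16.7 CPM in NT 1 to 3. Protein-coding genes had a median SD of 0.22 on the log2 scale in the NT group, processed pseudogenes one of 0.43.

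The guide effect with YTHDF2 was compared with the guide effect with the nuclease, which uses separate NT libraries, in a fit of all 12 libraries. Of 16297 genes, 0 (0%) were called for the difference and 1802 (11.1%) had an unadjusted p below 0.05 in edgeR. SMARCA4 had a log2 fold change of -0.22 with YTHDF2 and -0.01 with the nuclease, and the difference of -0.22 had an edgeR adjusted p of 0.552. That contrast depended on the scale. In deposited TPM the nuclease libraries were at 122, 148 and 146 with the NT guide and 130, 128 and 115 with the SMARCA4 guide. The nuclease means were 139 and 124 TPM with overlapping groups, beside 132 and 118 TPM with YTHDF2. In the YTHDF2 libraries a large part of these TPM was the short model SMARCA4-211, which held 9.7% of the gene's counts. With the length trend removed, 3 genes (0.0184%) were called for the difference, HIST1H2AC, DDB2 and AC010422.3. HIST1H2AC had a difference of 1.60 with an edgeR adjusted p of 0.033, with fold changes of 0.59 with YTHDF2 and -0.92 with the nuclease in the first fit. DDB2, a DNA damage recognition factor, had a difference of 1.03. For SLC2A1 the fold changes were 0.67 and 0.24, and for NDRG1 0.77 and 0.79, with edgeR adjusted p for the difference of 0.588 and 0.979.

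Cell type markers matched the labelled line. Of 14 genes listed for HEK-293 cells, 13 were measured, with summed levels of 1358 to 1620 CPM with the NT guide and 1307 to 1481 CPM with the SMARCA4 guide. Vimentin (VIM), the neurofilaments NEFL and NEFM and the renal factors PAX2 and LHX1 were among them, and PAX8 was not measured. MAP1B, a microtubule-associated protein, was at 140, 116 and 112 CPM against 101, 94.971 and 100 CPM. Of the other lists, 4 of 10 fibroblast, 3 of 8 epithelial, 3 of 9 blood and 0 of 8 liver genes passed the filter on low counts. Their summed levels were 30.8 to 34.4 CPM for fibroblasts, 7.15 to 10.1 CPM for epithelium and 2.39 to 4.88 CPM for blood over the 6 libraries, and the defining markers DCN, PTPRC, KRT5 and ALB were not measured.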

How the data were processed

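RNA of HEK-293T cells was extracted on RNeasy columns, enriched for mRNA and made into libraries with a KAPA kit, per the labels' protocols. The authors deposited 1 table per library with estimated counts and TPM for 200403 targets, which the submitters' processing notes attribute to kallisto; the notes also name sleuth and hg38, without versions. The deposited TPM are scaled by each target's effective length and to a fixed total, so they hold no depth. Neither the annotation release nor the strand setting is given in the sources used here, and near-identical, overlapping and antisense genes may share counts.

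Estimated counts were summed per gene ID (58290 IDs, 2 of them luciferase reporters) and rounded. Genes were tested with edgeR 4.0.16 in R 4.3.3 (TMM, filterByExpr, glmQLFit and glmQLFTest, two-sided, Benjamini-Hochberg over all genes tested, called under 0.05), over the 6 libraries with 1 mean per guide. CPM are relative to TMM-scaled totals, and fold changes are log2, SMARCA4 guide over NT guide. The second fit added an offset per library, a loess curve (span 0.5) of log2 CPM deviation on log10 transcript length. Transcript length is the count-weighted mean over a gene's models. Gene positions were taken from GENCODE 29 by ID for 58025 IDs. A gene counts as not overlapping where every library of 1 guide lies above every library of the other. The members and gene lists were chosen with earlier results of these data known, so counts over a list are descriptions.

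Genes named in the text were drawn from SMARCA4, the possible construct parts, the 10 genes per direction and fit with the smallest p among non-overlapping genes whose higher group reached 5 CPM, the 3 members of each list with the smallest p, and the 6 genes of at least 10 CPM with the largest NT spread. Further members of the lists are named to show their range and were chosen after their values were seen. The scripts were tested on simulated data. Alternatives were the 12-library fit, DESeq2 1.42.0, limma 3.58.1 voom with sample weights, DESeq2 size factors, no low-count filter, other length and GC corrections, length-scaled TPM, a replicate block and leaving out each library. The SMARCA4 comparison in deposited TPM was chosen after the data were seen.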

Additional observations from a re-analysis of the deposited data

How the results depend on the processing

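Against the 0 genes called in the first fit, DESeq2 called 3, limma voom with sample weights 1415 and the fit with no filter on low counts 61, of which 24 were higher. Leaving out each library in turn gave 0 to 6 calls, and 0 to 10 with the length trend removed, the most without NT 2. The 12-library fit, DESeq2 size factors, length-scaled TPM counts and the length and GC corrections gave 0, and no transcript model was called with no filter on low counts, with a replicate block or with any library left out. Calls for the difference between effectors were 3 with the length trend removed and between 0 and 1444 with a library left out, the most without NT 2. The SMARCA4 log2 fold change lay between -0.42 and -0.10 over all alternatives and did not pass the test in any. With the length trend removed, YTHDF2 (0.059) and SNRPA (0.22) without NT 3 turned sign and moved beyond their pooled SD within groups. The same held for RIDA (0.017) without NT 2 in that fit and for PDGFRA (-0.066) in length-scaled TPM. The cause was not tested. Of 123 named genes other than SMARCA4, 22 changed sign by any amount in at least 1 of 22 alternatives. The replicate numbers did not pair the libraries: the deviations of same-numbered libraries correlated at -0.05, 0.02 and 0.07. With a replicate block 0 genes were called, 348 had an unadjusted p below 0.05, and SMARCA4 was at -0.22 with an adjusted p of 0.975 (edgeR).

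With 3 libraries a group, the width of the NT libraries sets what can be seen: the 95% interval of SMARCA4 spans -28.8% to 2.96% in the first fit, and -25.7% to -1.38% in the 12-library fit. Reads divided between models or copies by kallisto add error that these intervals do not hold.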
